A study of Homo sapiens with 4 samples.

Results

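The 10 genes described here, ALB, AFP, APOA1, APOB, APOE, APOH, SERPINA1, TTR, FGB and AHSG, encode proteins that hepatocytes secrete into plasma. They were read in HCCLM3, a human hepatocellular carcinoma cell line, as a check of its liver identity. Members were taken by name: each row whose gene name was one of the 10 was kept, which gave 18 of 34975 listed transcripts and 10 of 13300 listed gene names, so that every member was listed. In RNA immunoprecipitation sequencing (RIP-seq), an antibody pulls a protein out of a cell lysate and the RNA bound to it is sequenced. Antibodies against KIAA1429 (KIAA1429 RIP, 2 libraries) were compared with normal IgG, the background of the method (IgG RIP, 2 libraries), to ask which mRNAs KIAA1429 binds. KIAA1429, also called VIRMA, is a subunit of the complex that writes N6-methyladenosine (m6A) on mRNA. All 4 libraries came from HCCLM3 with no treatment named other than the antibody, and all were poly(A)-selected. The labels do not say that replicates were separate cultures, so a p-value measures only the spread between these libraries, which may be technical.

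Hepatocytes make most of the protein of blood plasma. Albumin (ALB) and its fetal relative alpha-fetoprotein (AFP) are encoded by neighbouring genes; AFP falls silent in the liver after birth and is often made again by hepatocellular carcinoma. Apolipoproteins carry lipids, transthyretin (TTR) carries thyroid hormone and retinol-binding protein, alpha-1-antitrypsin (SERPINA1) inhibits neutrophil elastase, FGB is the beta chain of fibrinogen, and fetuin-A (AHSG) keeps calcium phosphate in solution.

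The mRNAs of all 10 genes were present in both precipitates, and 9 of them lay above 6.65 FPKM, the median mean level of all 13300 listed gene names. FPKM, a count of fragments divided by transcript length and by library size, is a value per length, so levels can be set side by side between genes. Gene totals add up the transcripts listed for a gene. Together the 10 genes held 364 and 415 FPKM in IgG RIP against 361 and 419 FPKM in KIAA1429 RIP, which was 0.107% to 0.132% of the FPKM of a library. None of the 10 was called by limma after adjustment over 11361 gene totals, of which 0 were called in either direction (0% of those tested). The unadjusted limma p was under 0.05 for 1 member, APOH, and for 4.59% of all gene totals. The median log2 fold change of the members was 0.02, as was that of all gene totals.

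The tables hold no read counts, but they keep a trace of depth. In genes with 1 listed transcript, FPKM multiplied by transcript length in kilobases piled up at 1 common low value in each library, with 167 to 217 transcripts within 1% of it and a median of 3 to 6 in neighbouring windows. That value was taken as 1 fragment, which put the libraries at about 745000 to 983000 fragments, of which about 469000 to 688000 lay on listed transcripts. All fragment numbers given for a gene are estimates made this way. Intervals from them cover counting error alone, since PCR copies cannot be told from separate molecules.

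Sequence is shown for APOH, whose difference was the largest of the members, and for AFP, whose listed transcripts changed places between libraries. No motif but GGAC, a core of the one that the m6A writer complex prefers, was searched. GGAC was searched on the sense strand of each member transcript, and its density is given for the coding sequence. In APOH-201 (chromosome 17, 64208151 to 64225535, minus strand, GRCh37) it occurred 5 times in 1035 coding bases, 4.83 per kb. A match is a description of the sequence, not a methylated site. Of 11469 listed protein-coding genes, 96.9% held at least 1 GGAC in the coding sequence, with a median of 4.62 per kb. The sites of APOH, each GGAC in capitals with the flanking coding bases, are given 5′ to 3′ on the mRNA strand.
APOH sites 1 and 2, chr17:64224305-64225449, across an exon junction: gctattgcaGGACGGACctgtcccaa
APOH site 3, chr17:64224159-64224180: cctctcacaGGACtgtggccca
APOH site 4, chr17:64216763-64216784: cctctatcgGGACacagcagtt
APOH site 5, chr17:64216683-64216704: atggaaattGGACtaaattacc

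AFP had 2 listed transcripts, which part at the end of exon 13. AFP-202 goes on into an exon of 55 bases (chr4:74320953-74321007, plus strand, GRCh37) that AFP-201 skips for the exon after it (chr4:74321348-74321460). The stretches across the junction are shown because reads there tell these transcripts apart, with the bases of the exon joined on in capitals.
AFP-201 junction, chr4:74319601-74321361: gctttgctgaagagGGGAAGAGAAGACA
AFP-202 junction, chr4:74319601-74320966: gctttgctgaagagGGACAAAAACTGAT
The joined exon of AFP-202 opened with GGAC, and its coding sequence held 5 GGAC where that of AFP-201 held 4.

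Of the serum albumin family, AFP was the most abundant of the 10 mRNAs in every library. AFP read 121 and 128 FPKM in IgG RIP against 99.1 and 115 FPKM in KIAA1429 RIP, which ranked it 362 of 13300 gene names by mean level. Both KIAA1429 RIP values lay below both IgG RIP values. The group means were 124.5 ± 4.67 and 107 ± 11.6 FPKM (SD, n = 2 each), a log2 ratio of -0.21 with an error of 0.17, the root of the summed variances of the log2 values in the groups. By limma the log2 fold change was -0.22 (SE 0.28, adjusted p = 0.997). The 2 groups of AFP overlapped once the libraries were scaled to a common median (log2 ratio -0.18), and stayed apart after quantile normalization (log2 ratio -0.37).

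ALB followed AFP in KIAA1429 RIP, and AFP and SERPINA1 in IgG RIP. ALB read 53.5 and 68.8 FPKM in IgG RIP against 66.2 and 76.3 FPKM in KIAA1429 RIP, so that the groups overlapped. Its log2 ratio of group means was 0.22 with an error of 0.30, and its limma adjusted p was 0.997. The level of AFP divided by that of ALB was 2.27 and 1.86 in IgG RIP against 1.5 and 1.51 in KIAA1429 RIP. This within-library ratio does not depend on scaling between libraries, and it was lower in both KIAA1429 RIP libraries; it was chosen after the values were seen and was not tested. The AFP total rested on an estimated 281 and 196 fragments in IgG RIP against 192 and 252 in KIAA1429 RIP, and the ALB total on 89.6 to 129 fragments in a library.

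**Figure D1:**
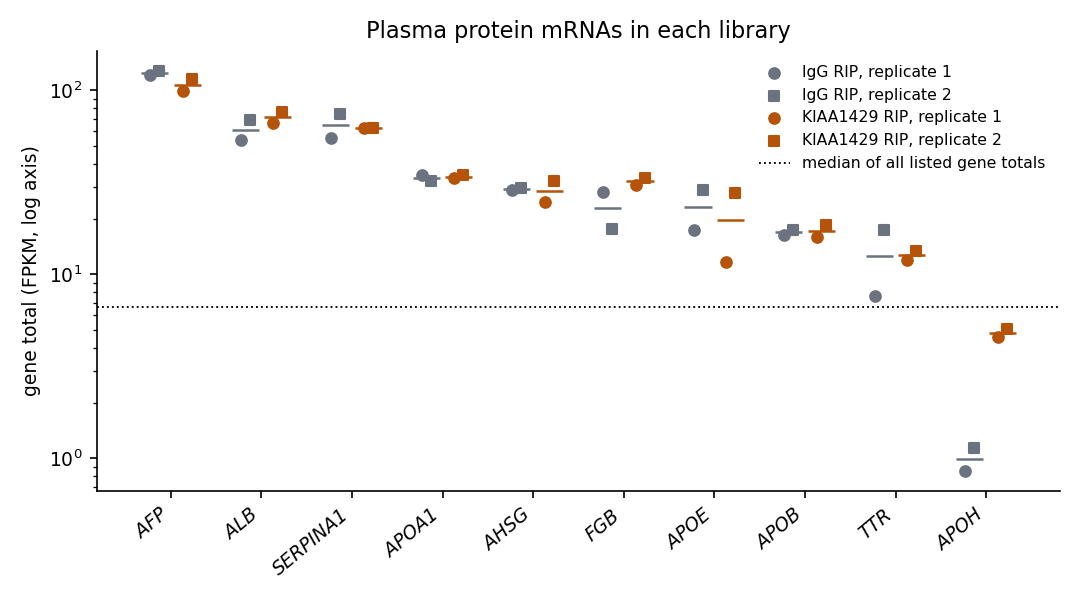
Gene totals of the 10 plasma protein genes in each of the 4 libraries, in FPKM on a log axis, with circles for replicate 1, squares for replicate 2 and a short line at each group mean. AFP is highest and APOH lowest in every library, and APOH is the only gene with both groups far apart.

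Of the 4 members named as apolipoproteins (APOA1, APOB, APOE and APOH), 3 had a log2 ratio smaller than its error. APOA1, the main protein of high-density lipoprotein, read 34.8 and 32.3 FPKM in IgG RIP against 33.3 and 34.7 FPKM in KIAA1429 RIP. It was the steadiest member, with a coefficient of variation of 3.55% over the 4 libraries and a log2 ratio of 0.02 with an error of 0.09. APOB, the very long structural protein of low-density and very-low-density lipoprotein, read 16.5 and 17.4 FPKM in IgG RIP against 15.9 and 18.7 FPKM in KIAA1429 RIP. The groups of both genes overlapped. Because APOB-201 is 14121 bases long, its moderate level rested on 183 to 257 fragments in a library, as many as AFP. The exact 95% counting interval of its KIAA1429 RIP to IgG RIP ratio was 0.899 to 1.18. This interval left out equality for AFP (0.762 to 0.991) and FGB (1.02 to 1.84). It held equality for ALB (0.982 to 1.46), APOA1 (0.712 to 1.41), APOE (0.613 to 1.49), SERPINA1 (0.821 to 1.26), TTR (0.564 to 2.06) and AHSG (0.719 to 1.33). The spread between replicates is not part of these intervals.

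APOE, the ligand by which remnant lipoproteins are cleared, varied more between replicates than between antibodies. It read 17.5 and 28.8 FPKM in IgG RIP against 11.7 and 27.7 FPKM in KIAA1429 RIP. In each group replicate 2 was the higher library, and the groups overlapped. The log2 ratio was -0.23 with an error of 1.02, and leaving out 1 library at a time moved it from -0.99 to 0.26. APOE rested on 12.2 to 31.3 fragments in a library.

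APOH (beta-2-glycoprotein I), which binds anionic phospholipids, was the least abundant member in every library and the only one whose group means lay 2-fold or more apart. It read 0.855 and 1.14 FPKM in IgG RIP against 4.59 and 5.04 FPKM in KIAA1429 RIP. Both KIAA1429 RIP libraries stood above both IgG RIP libraries, with means of 0.996 ± 0.2 and 4.81 ± 0.319 FPKM (SD, n = 2 each). The ratio of the means was 4.83, a log2 ratio of 2.27 with an error of 0.31. On the log2(FPKM + 1) scale, which understates the change of low genes, limma gave a log2 fold change of 1.55 (SE 0.52, unadjusted p = 0.0204, adjusted p = 0.997), and APOH was not called. Of all gene totals tested, 7.58% were 2-fold or more higher and 6.14% lower, and 5.41% and 4.08% were that far apart with no overlap of the groups. In the same direction, higher in KIAA1429 RIP, groups at least as far apart as those of APOH and without overlap were found in 140 gene totals (1.23%). Gene totals lower by as much were not counted.

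The reads behind the APOH values were few. They corresponded to 0.988 and 0.997 fragments in IgG RIP, and to 4.72 and 5.78 fragments in KIAA1429 RIP, close to whole numbers in IgG RIP. Summed and rounded, these were 2 fragments (exact Poisson 95% interval 0.242 to 7.22) and 11 fragments (5.49 to 19.7). Per fragment of depth the ratio was 5.14 with an exact 95% interval of 1.12 to 47.7, for these libraries and for counting error alone. The KIAA1429 RIP sum was 10.5 before rounding, and the lower end of the interval moves with the rounding. APOH was picked as the member with the largest difference, which the interval leaves out of account. Of the 1760 gene totals between 2 and 4 FPKM, the band that holds APOH, 9.32% were 2-fold or more higher without overlap and 7.39% were lower. The GGAC density of APOH, printed with its sites above, was higher than that of 52.9% of genes.

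**Figure D2:**
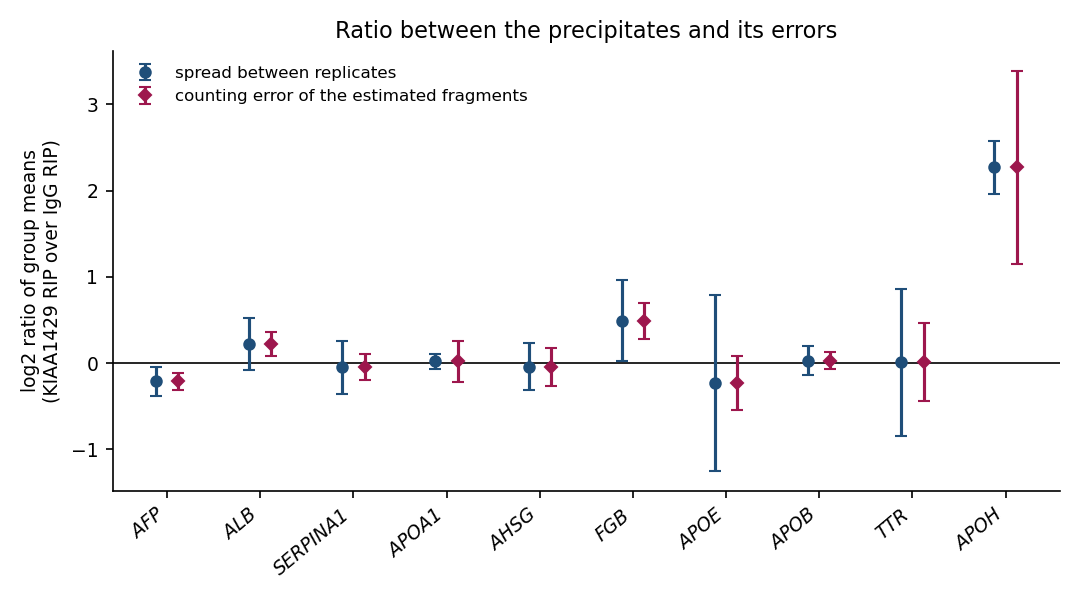
Log2 ratio of group means, KIAA1429 RIP over IgG RIP, for each gene in order of level, drawn with the spread between replicates (circles) and with the counting error of the estimated fragments (diamonds). APOH is at 2.27 with a replicate error of 0.31 and a counting error of 1.12, and the other 9 genes are within 0.49 of 0.

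SERPINA1 (alpha-1-antitrypsin), the protease inhibitor among the members, read 55.1 and 74.5 FPKM in IgG RIP against 62.7 and 62.6 FPKM in KIAA1429 RIP. Both KIAA1429 RIP values lay between the IgG RIP values, and the log2 ratio was -0.05 with an error of 0.31. TTR, the transthyretin mRNA, read 7.66 and 17.5 FPKM in IgG RIP against 11.96 and 13.4 FPKM in KIAA1429 RIP. Its KIAA1429 RIP values likewise lay between those of IgG RIP, and it rested on 7.21 to 12.5 fragments in a library. AHSG, the mRNA of fetuin-A, read 28.9 and 29.5 FPKM in IgG RIP against 24.7 and 32.1 FPKM in KIAA1429 RIP, again with overlap of the groups. The limma adjusted p of these genes was 0.997.

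FGB, the beta chain of fibrinogen, was higher in both KIAA1429 RIP libraries but not past the test. It read 28.0 and 17.7 FPKM in IgG RIP against 30.7 and 33.4 FPKM in KIAA1429 RIP, with means of 22.8 ± 7.26 and 32.0 ± 1.91 FPKM (SD, n = 2 each). The groups did not overlap, and the distance from the nearer IgG RIP library was small. The log2 ratio was 0.49 with an error of 0.47, and the limma log2 fold change was 0.50 (SE 0.34, unadjusted p = 0.181, adjusted p = 0.997). Without IgG RIP replicate 2, the low library, the log2 ratio was 0.20. Fibrinogen is assembled from 3 chains in equal parts, and FGB was the most abundant of their mRNAs in every library. The FGB level divided by that of the alpha chain FGA was 1.48 and 1.13 in IgG RIP against 2.11 and 1.93 in KIAA1429 RIP. Divided by that of FGG it was 1.51 and 1.66 in IgG RIP against 1.74 and 2.67 in KIAA1429 RIP. These ratios were outside the planned comparisons and were not tested. FGA itself read 18.9 and 15.6 FPKM in IgG RIP against 14.5 and 17.3 FPKM in KIAA1429 RIP, and FGG, the gamma chain, 18.5 and 10.7 against 17.7 and 12.5 FPKM. The groups of FGA and FGG overlapped.

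Counted over the members, 2 were higher in KIAA1429 RIP with no overlap of the groups (APOH and FGB), 1 was lower (AFP) and 7 overlapped. Of all 11361 gene totals 16.6% were higher and 15.2% lower without overlap, so that 2 and 1 of 10 were near the background. For 7 members the log2 ratio was smaller than its error. That error is a spread of single libraries and is larger than a standard error of the group means, so the count depends on this choice. The exact permutation test of 2 against 2 libraries cannot go below p = 0.33, two-sided, so no single gene could pass it.

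The order of the levels held in part across libraries. AFP lay above ALB in all 4 libraries, and their ranges did not overlap. ALB and SERPINA1 overlapped and changed places between the antibodies, with SERPINA1 higher in IgG RIP, and ALB higher in KIAA1429 RIP. Both lay above APOA1, which lay above AHSG in every library. From AHSG through FGB, APOE and APOB to TTR each gene overlapped its neighbour in this order. Genes further apart in it could still be separate: AHSG lay above APOB and TTR in every library with no overlap of their ranges, and FGB lay above TTR. TTR lay above APOH in every library.

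The gene totals whose pattern over the 4 libraries was most like that of AFP were PIK3R1, MMADHC and WASHC1, at distances of 0.022, 0.035 and 0.043 between centred log2(FPKM + 1) values among 11360 gene totals searched. The distance is given as a description only.

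The division of reads among the listed transcripts of a gene was less steady than the gene totals. AFP-201 held 21.6% and 75.1% of the AFP total in IgG RIP against 47.2% and 43.7% in KIAA1429 RIP, and AFP-202 held the rest. The leading transcript thus changed between the IgG RIP replicates while the total moved from 121 to 128 FPKM. The coefficient of variation over the libraries was 53.7% for AFP-201, 43.4% for AFP-202 and 10.6% for the gene total. In the annotation all 1914 bases of AFP-201 also lie in AFP-202, which has 512 more, so most fragments can fit both transcripts. The split rests on the junctions printed above, the exon that AFP-201 skips and the ends of AFP-202. AFP-202 is listed from 74301880 to 74321891, and AFP-201 from 74301964 to 74321460.

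For ALB, the transcript ALB-216 held 67.1% to 75.1% of the total, and ALB-201, the full-length mRNA, held the remainder. ALB-216 is annotated without its 5′ end, and 1504 of its 1519 bases are shared with ALB-201, so this share is uncertain. APOA1-204 held 30.4% and 6.78% of the APOA1 total in IgG RIP against 54.5% and 12.4% in KIAA1429 RIP, and it was the higher in replicate 1 of each group. SERPINA1-202 held 83.2% to 96.1% of its gene in every library.

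APOE-203, annotated without its 3′ end, was lower in KIAA1429 RIP with no overlap. Of the 16 member transcripts tested, it was the 1 lower without overlap and 2 were higher (APOH-201 and FGB-201), beside 14.5% lower and 15.2% higher of all 23375 transcripts tested. It read 4.18 and 5.49 FPKM in IgG RIP, and was listed at 0 and at 2.51 FPKM in KIAA1429 RIP. Its limma log2 fold change was -1.63 (SE 0.82, unadjusted p = 0.108, adjusted p = 0.879). It shares 782 of its 864 bases with APOE-201. Of the 18 listed transcripts, 16 passed the mean of 1 FPKM and were tested by limma; 0 were called, 1 (APOH-201) had an unadjusted p under 0.05, and the adjusted p ran from 0.879 to 1. Of all 23375 transcripts tested, 0% were called in either direction.

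**Figure D3:**
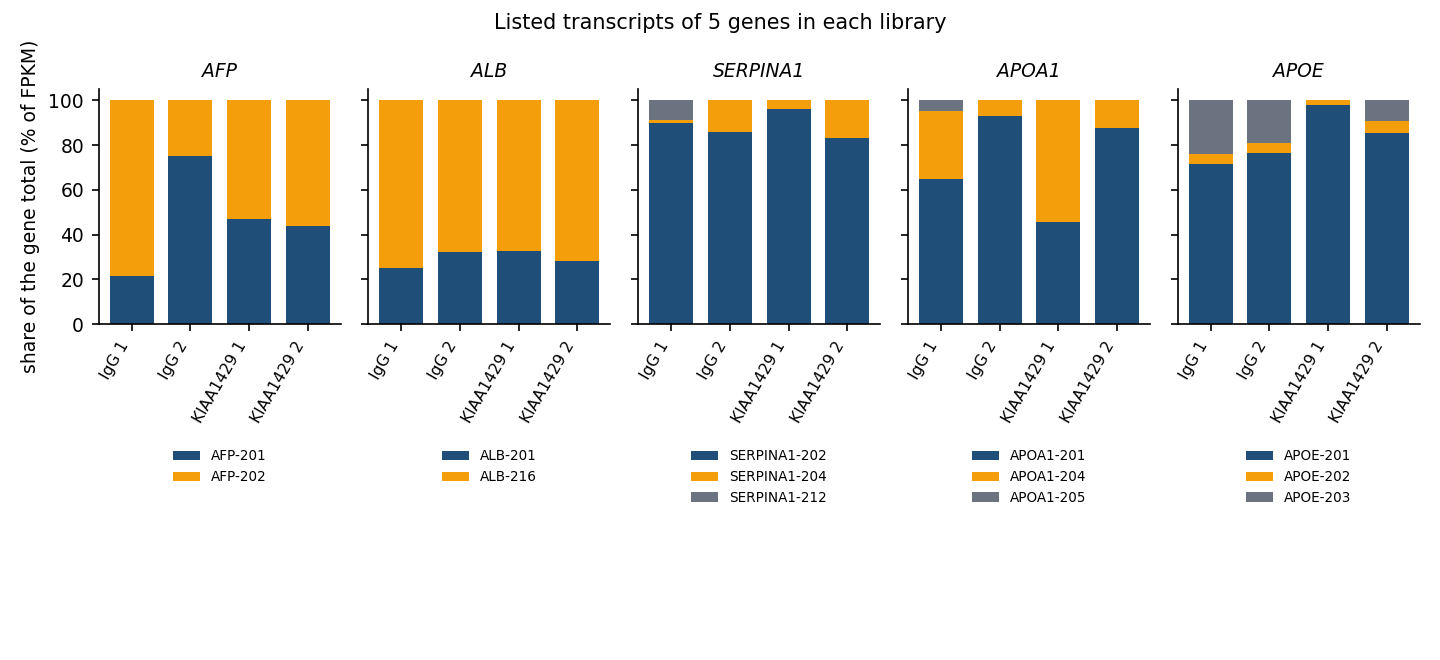
Share of each listed transcript in its gene total, in percent of FPKM, for the 5 genes with more than 1 listed transcript, by library. AFP-201 (blue) goes from 21.6% to 75.1% between the IgG RIP replicates, and ALB-216 (orange) stays between 67.1% and 75.1%.

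On GRCh37, as the tables list them, ALB (chr4:74269956-74287129), AFP (chr4:74301880-74321891) and FGB (chr4:155484108-155492238) lie on the plus strand of chromosome 4. On the plus strand lie also APOE (chr19:45409011-45412650), TTR (chr18:29171689-29178974) and AHSG (chr3:186330712-186339107). On the minus strand lie APOA1 (chr11:116706467-116708666), APOB (chr2:21224301-21266945), APOH and SERPINA1 (chr14:94844686-94855157). All 18 listed transcripts are annotated as protein-coding. Other annotated genes overlap exons of 3 members: APOA1-AS on the opposite strand of APOA1, ENSG00000280390 opposite APOB and ENSG00000280087 on the strand of APOE. None of these was found among the listed gene names. The listed gene identifiers were not searched, so ENSG00000280390 and ENSG00000280087 may be listed under another name. No strand setting of the counting is given in the sources used here, so reads of these genes cannot be told from those of APOA1, APOB or APOE.

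The density of GGAC in the coding sequences ran from 0.547 per kb in ALB to 6.24 per kb in APOA1, with a median of 4.31 over the 10 genes. ALB held 1 GGAC in 1827 coding bases, a density above that of 3.22% of genes. AFP-201, at 2.14 per kb, was above 13%, TTR, at 2.27, above 14.5%, and APOB, with 40 sites in 13689 bases, above 23.9%. APOA1 was above 71.3% of genes. At both ends of this range the log2 ratio between the antibodies, 0.22 for ALB and 0.02 for APOA1, was smaller than its error. For ALB this depended on taking the spread of single libraries as the error. These densities leave out the untranslated regions. The annotated 3′ untranslated region held 8 GGAC in FGB-201, 7 in SERPINA1-202 and 3 in TTR-201. It held 1 in AHSG-202, APOB-201 and APOE-201, and 0 in ALB-201, APOA1-201, APOH-201, AFP-201 and AFP-202. FGB-201 and SERPINA1-202 are listed shorter than annotated, at 1975 of 3641 and 1622 of 3006 bases.

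The wider set of plasma proteins was listed less completely. Of 86 further genes for transport and lipoproteins, coagulation, complement, and acute phase and protease inhibition, 45 were listed (52.3%), 35 reached a mean of 1 FPKM and were tested by limma, and 0 were called. An unadjusted p under 0.05 was reached by 2 of them, APOC2 (log2 fold change 2.04) and C3 (-1.33), of which APOC2 was named after its values were seen. Without overlap of the groups, 5 were higher (14.3%) and 12 lower (34.3%), beside 16.6% and 15.2% of all gene totals. After scaling to a common median the lower count was 8 (22.9%, beside 14.1% of all gene totals), and after quantile normalization 10 of 34 (29.4%, beside 16.6%). The median log2 fold change was -0.11, and it was 0.00 without KIAA1429 RIP replicate 1 and -0.35 without KIAA1429 RIP replicate 2.

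Of the 13 transport and lipoprotein genes tested, 6 were lower (46.2%, beside 15.2% of all gene totals) and 4 higher (30.8%, beside 16.6%) without overlap, and these counts were the same after either scaling. APOA2, the second protein of high-density lipoprotein, read 143 and 70.4 FPKM in IgG RIP against 55.8 and 65.1 FPKM in KIAA1429 RIP. AMBP, the precursor of alpha-1-microglobulin and bikunin, read 24.4 and 28.8 against 11.9 and 19.5 FPKM. Retinol-binding protein RBP4 read 35.2 and 29.0 against 24.8 and 13.9 FPKM, and transferrin (TF) read 27.9 and 32.5 against 23.2 and 24.01 FPKM. All of these were lower in both KIAA1429 RIP libraries, none passed limma (adjusted p = 0.997 for each), and APOA2 was set apart from the others by 1 high IgG RIP library. A1BG read 0.476 and 0.648 FPKM in IgG RIP against 2.51 and 2.37 FPKM in KIAA1429 RIP, at a level as low as that of APOH; it was named after its values were seen. Haptoglobin (HP) was not listed.

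In the coagulation list, 13 of 22 genes were listed, with PROS1 (protein S) and SERPINF2 (alpha-2-antiplasmin) next after FGA and FGG. PROS1 read 7.49 and 13.2 FPKM in IgG RIP against 6.88 and 11.4 FPKM in KIAA1429 RIP, and SERPINF2 read 4.22 and 3.33 against 2.18 and 5.46 FPKM, both with overlap. Plasminogen (PLG) and F9 were not listed. Of the complement list 10 of 21 were listed, C3 first with 6.24 and 8.70 FPKM in IgG RIP against 1.76 and 3.002 FPKM in KIAA1429 RIP. C3, the hub of the complement cascade, was thus lower in both KIAA1429 RIP libraries (limma unadjusted p = 0.0288, adjusted p = 0.997). Next came C7, at 2.05 and 3.68 FPKM in IgG RIP against 2.55 and 2.38 FPKM in KIAA1429 RIP, with overlap. C1R read 0.723 and 0 FPKM in IgG RIP against 0.341 and 6.34 FPKM in KIAA1429 RIP. Its mean of 1.85 FPKM thus rested mostly on KIAA1429 RIP replicate 2. The acute phase and protease inhibitor list was the least complete of the plasma lists, with 7 of 21 listed. Angiotensinogen (AGT) led it at 17.5 and 15.6 against 14.1 and 15.6 FPKM, followed by ITIH2, A2M and SERPING1 with means of 9.64, 9.49 and 4.64 FPKM, and CRP and SAA1, the classical acute phase proteins, were not listed.

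**Figure D4:**
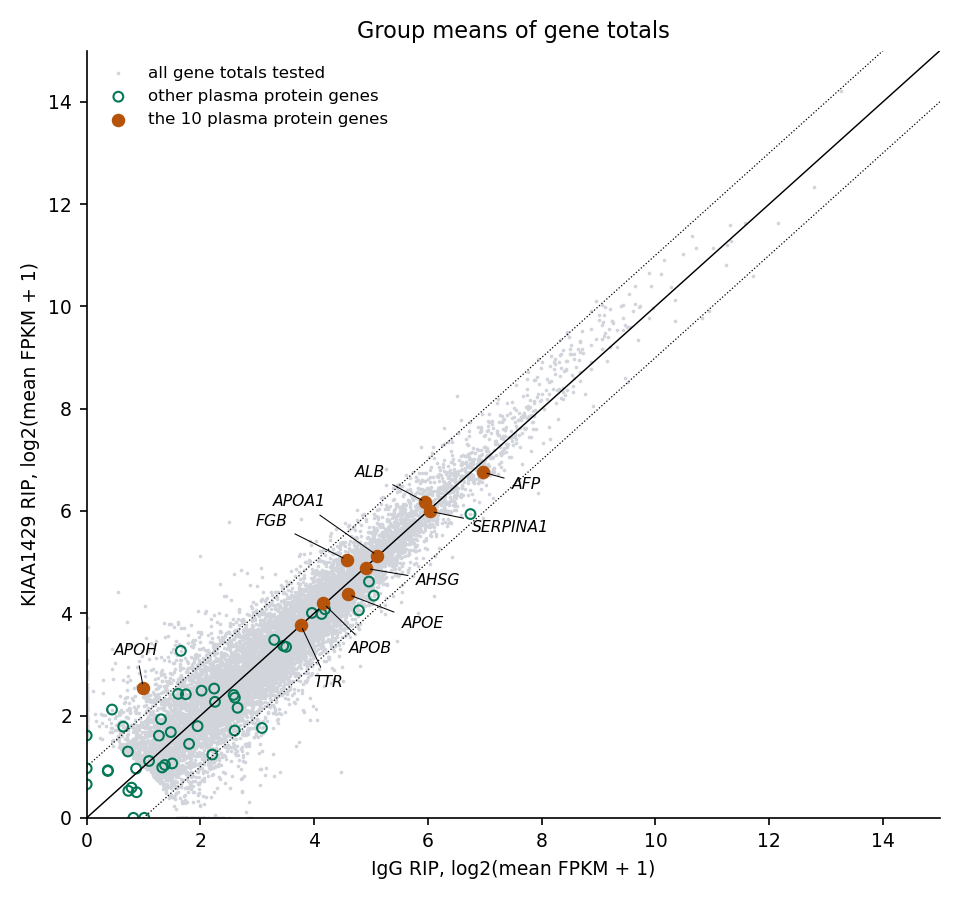
Group means of gene totals as log2(mean FPKM + 1), KIAA1429 RIP against IgG RIP, for all gene totals tested (grey), the listed genes of the 4 further plasma protein lists (open green circles, genes under a mean of 1 FPKM included) and the 10 genes (orange). The solid line marks equality and the dotted lines a log2 difference of 1 on this scale; 9 of the 10 genes lie near the solid line and APOH lies above the upper dotted line.

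Markers of hepatocytes and of other cells were read beside the members, as a check of the cell line. Of 34 hepatocyte enzymes and receptors 11 were listed. FABP1, a liver fatty acid carrier, read 36.4 and 39.0 FPKM in IgG RIP against 35.2 and 32.1 FPKM in KIAA1429 RIP; the fetal and tumour surface protein GPC3 read 13.01 and 20.6 against 11.5 and 8.22 FPKM. GLUL and ASGR2 had means of 13.4 and 7.01 FPKM. ASGR1, TAT, CYP3A4 and SLC10A1, which mature hepatocytes use, were not listed. Of 21 hepatic transcription factors 16 were listed and 8 reached a mean of 1 FPKM. CEBPB read 43.6 to 62.5 FPKM in a library, and GATA4 and CEBPA had means of 5.56 and 3.36 FPKM. HNF4A, named after its values were seen, read 0.305 to 1.11 FPKM in a library.

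Of 14 markers of other epithelia 8 were listed, and 3 of them, all keratins, lay above every member. KRT18 read 820.1 to 1048 FPKM, KRT8 260 to 432 FPKM and KRT19, a keratin of bile duct cells, 208 to 285 FPKM, while SOX9 read 38.7 to 107 FPKM and had a mean below that of AFP. KRT7, SPP1, MUC1 and EPCAM, given to complete the list, had means of 21.5, 11.01, 3.87 and 2.04 FPKM, below the median of the members' means, 28.1 FPKM. KRT8 and KRT18 are also the keratins of hepatocytes. AFP was 0.0945 to 0.156 times KRT18 in a library. CDH1 was not listed. Of 17 luminal breast and urothelial genes 6 were listed, among them GATA3 at 36.0 to 50.3 FPKM, MLPH at 17.96 to 31.8, XBP1 at 11.8 to 32.2 and TRPS1 at 1.96 to 5.45 FPKM; ESR1, PGR and the uroplakins were not listed.

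Of 8 stromal genes 4 were listed. VIM, which many cultured tumour lines express, read 659 to 1084 FPKM, ACTA2 18.2 to 37.1, COL3A1 7.46 to 15.2 and PDGFRB 1.05 to 4.88 FPKM, and COL1A1 was not listed. Of 8 leucocyte genes 3 were listed, CD68 at 28.7 to 72.2, LYZ at 9.89 to 17.5 and CD14 at 0 to 2.12 FPKM, and PTPRC was not listed; none of the 7 endothelial genes was listed. The summed level of the other epithelial list was 1684 and 1370 FPKM in IgG RIP against 1823 and 1609 FPKM in KIAA1429 RIP, so that it did not separate the groups. The members, which are liver proteins, and these other markers were thus listed side by side in every library. The part of other cell types in the members' levels was not tested.

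The level in a precipitate combines how much of an mRNA the lysate held and how much of it came down. The 2 cannot be told apart from these libraries, and no input library was analysed here. The tables list a transcript only where the higher group mean was 0.5001 FPKM or more, so a gene that is not listed may lie below that level.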

How the data were processed

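RNA from KIAA1429 or IgG precipitates of HCCLM3 lysates was poly(A)-selected, fragmented, copied from random primers and sequenced. The authors aligned the reads to GRCh37/hg19 by HISAT2 (the submitters' processing notes name Bowtie2 2.1.0) and deposited 1 FPKM value per transcript and library. The FPKM tool and the annotation release are not given in the sources used here. FPKM values summed to 295573 to 340300 in a library, and 26.6% to 32.2% of transcripts were at 0.

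FPKM were summed per gene name. Gene totals, or transcripts, averaging 1 FPKM or more were compared as log2(FPKM + 1) by limma 3.58.1 in R 4.3.3 (trend, two-sided, Benjamini-Hochberg), and called where the log2 fold change passed 1 in size with an adjusted p below 0.05. The script was tested on simulated data, where recovery of raised features was required only at a smaller spread than that of these data. A lack of calls therefore need not mean a lack of difference. A count test was not used, since the files hold FPKM. The levels of each member are given as mean ± SD with the log2 ratio of group means. Depth was estimated from FPKM times length, with GENCODE v44 (GRCh37) lengths. Their outer exons were shortened or lengthened to the listed transcript ends. Sequences are from GRCh37. Each member is named, and of every further list values are given for up to the 4 highest genes. Some genes of these lists are not reported here. The members and the lists were chosen with earlier results of these data known. Replicate numbers are shared between the groups, and the block on them is given with the alternatives. Pseudocount, filter, scaling, transcript choice, block, trend and leaving out each library were tried.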

Additional observations from a re-analysis of the deposited data

How the results depend on the processing

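Of 253 values recomputed under the alternatives, 248 stayed within the replicate spread or on the same side of the threshold in the same direction. The replicate numbers are shared between IgG RIP and KIAA1429 RIP. The correlation of same-numbered deviations was 0.187 over only 2 pairs, and no label marks a shared batch. Whether same-numbered libraries were paired cannot be told from these data. With a replicate block, limma called 12 gene totals higher and 1 lower where 0 were called without it. Among them were 0 of the 10 members and 0 genes of the further lists. The limma adjusted p of the members then ran from 0.41 to 0.994. The cause was not tested. With the most abundant listed transcript in place of the gene total, the limma log2 fold change of AFP became 0.08 (adjusted p = 0.999), the choice of transcript having changed the quantity measured, and the log2 ratio of APOA1 became -0.21. With a pseudocount of 1 the log2 ratio of APOH was 1.54, as the pseudocount is about as large as its mean IgG RIP level of 0.996 FPKM. With 1 library left out at a time, the log2 ratio ran from 2.08 to 2.49 for APOH, 0.20 to 0.86 for FGB, -0.33 to -0.11 for AFP, -0.99 to 0.26 for APOE, -0.46 to 0.73 for TTR and -0.25 to 0.19 for SERPINA1. Over all alternatives the limma adjusted p was 0.41 to 1 for APOH, 0.736 to 1 for FGB and 0.834 to 1 for AFP. A filter at 5 FPKM left APOH out. Depth limits APOH most, with 2 estimated fragments over both IgG RIP libraries.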
